A study of Mus musculus with 11 samples.

Results

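Purinergic receptors and the enzymes around them let microglia sense ATP and its breakdown products, and 9 such genes of mouse microglia were examined here out of 19555 genes measured on 11 arrays. The genes were P2ry12, P2ry13, P2ry14, P2ry6, Gpr34, P2rx4, P2rx7, Entpd1 and Adora3. They were chosen by name for their place in this pathway, and each was found by matching the RefSeq accession of its probes to a gene symbol. The question was whether related receptors shared the weak return of P2ry12 when cytokines were added to cultured cells.

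ATP leaks from injured or active neurons and is cut by surface enzymes to ADP, AMP and adenosine. P2X receptors are ion channels opened by ATP. P2Y receptors are coupled to G proteins, and several of them respond to ADP, to uridine nucleotides or to UDP-glucose. Adenosine acts on receptors of its own. In microglia, P2ry12 steers the processes of resting cells toward a source of ADP and is widely used as a marker of homeostatic cells.

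All cells came from C57BL/6N mice. A_FACS (2 arrays) held microglia sorted from adult brain, and NB_FACS (3 arrays) held microglia sorted from newborn brain. Both were lysed without culture after a gate on high CX3CR1 and intermediate CD45, so Cx3cr1 and Ptprc were part of the sort. NB_Control (3 arrays) and NB_Stim (3 arrays) held newborn microglia shaken off mixed glial flasks, which had been seeded with pooled neonatal brains and fed L-929 conditioned medium for weeks, and then kept in medium with serum. NB_Stim was given 3 human cytokines in addition, TGF-β1, IL-34 and CX3CL1, with 100 ng/mL of every one. Per the study's methods only females were used as adults while newborns were not separated by sex, so age and sex cannot be told apart, and neither can culture and the way of isolation between NB_Control and NB_FACS. Slide 2 held 1 array of every newborn group, its replicate 3, and slide 1 held the remaining 8. Slide 2 was the brighter one, with 75th percentiles between 445.6 and 509 against values between 173.2 and 315. Values are quantile-normalised log2 intensities, averaged over the probes of a gene, and a difference was called at an adjusted p under 0.05 in limma's moderated test with Benjamini-Hochberg adjustment over all 19555 genes. In bulk RNA, fewer cells of a type and less RNA per cell cannot be told apart.

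The summed intensity of 10 microglia marker genes was 298000 to 317000 in NB_FACS, 149000 to 204000 in NB_Control, 298000 to 307000 in NB_Stim and 425000 to 426000 in A_FACS, so the labelled cell type was present in every group. RNA of other cells differed between groups. The sum of 5 erythroid markers was 149000 to 205000 in NB_FACS and 93.9 to 128 in the cultured groups, and that of 7 mural and fibroblast markers was 2250 to 2370 in NB_FACS, 42700 to 50300 in NB_Control and 24600 to 55100 in NB_Stim. The sum of 6 endothelial markers was 4860 to 6630, 988 to 1120 and 2070 to 2440 in the same 3 groups. From NB_Control to NB_Stim only Flt1 of these was called (2.78). Cldn5 (-0.65), Pecam1 (-0.53) and Cdh5 (-0.15) were lower and Kdr (0.23) higher without a call, and Tek was dim in both. Between the cultured groups, the sum of 6 border macrophage markers was 28200 to 29700 in NB_Control and 5410 to 7410 in NB_Stim (10200 to 11800 in NB_FACS), and that of 4 oligodendrocyte lineage markers was 688 to 1150 and 1150 to 3820. In NB_Control the border macrophage sum rested mostly on Ms4a7 and Mrc1 (means 14.13 and 13.33, against 7.46 and 13.15 in NB_FACS). Of the 6, 1 was called higher in NB_Control than in NB_FACS (Ms4a7, 6.66) and 3 lower. The lower ones were Lyve1 (at least 20.7-fold, not well above background in NB_Control), Cbr2 (-3.15) and Cd163 (-3.07). With cytokines only Mrc1 was called (-5.24). Platelets also carry P2ry12, and the sum of 5 platelet markers was 1060 to 1280 in NB_FACS, 1170 to 2380 in NB_Control and 1330 to 2020 in NB_Stim. The platelet markers went different ways between NB_Control and NB_FACS. Ppbp was called higher (6.02), Gp9 lower (-1.98), and 3 were not called. In A_FACS the sums were 8420 to 25200 for erythroid and 258 to 600 for border macrophage markers. Those of endothelial and of mural and fibroblast markers were 6310 to 12700 and 6040 to 8700 there. The part of these cells in the results was not tested.

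The 9 genes were covered by 22 probes, of which 15 passed the filter on dim probes and 11 were well above background on all 11 arrays. All 9 genes had at least 1 passing probe. Only P2rx7 and Entpd1 had several passing probes, and the other 7 genes rested on a single one. That probe is shown for P2ry12, its neighbours P2ry13 and P2ry14, and Adora3, the receptor for the end product adenosine, 5′ to 3′ as on the array.
P2ry12: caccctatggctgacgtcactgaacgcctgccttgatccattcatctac
P2ry13: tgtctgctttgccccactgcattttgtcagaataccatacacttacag
P2ry14: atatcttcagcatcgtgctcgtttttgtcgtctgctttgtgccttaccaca
Adora3: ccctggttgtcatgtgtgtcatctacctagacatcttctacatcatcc

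P2ry12 and P2ry13 are direct neighbours on chromosome 3, inside the bounds of Med12l, which also hold P2ry14 and Gpr171. The 250 bases before the start site of these neighbours are shown because both genes moved together below. They are from RefSeq, build GRCm38.p6, minus strand, at chr3:59262986-59263235 for P2ry12 and chr3:59210883-59211132 for P2ry13. Capitals mark GAGGAA, the core of PU.1 sites, and CAGAC, the core of SMAD binding elements, on either strand.
P2ry12: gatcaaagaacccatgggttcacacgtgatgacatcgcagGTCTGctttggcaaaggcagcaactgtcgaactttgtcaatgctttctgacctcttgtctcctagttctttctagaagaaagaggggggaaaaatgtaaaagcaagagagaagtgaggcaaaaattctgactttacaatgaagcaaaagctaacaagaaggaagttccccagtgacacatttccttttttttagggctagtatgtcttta
P2ry13: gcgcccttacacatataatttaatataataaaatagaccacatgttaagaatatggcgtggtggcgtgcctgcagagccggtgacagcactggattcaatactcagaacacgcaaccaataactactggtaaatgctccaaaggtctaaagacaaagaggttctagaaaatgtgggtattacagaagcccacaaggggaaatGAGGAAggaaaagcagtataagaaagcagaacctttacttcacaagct

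The RefSeq promoter table held 12 promoter windows of the same length (250 bases before the start site and 50 after it) for 7 of the 9 genes. GAGGAA was present in 9 of these 12 windows and in 28.3% of all 32851 windows of that length, and CAGAC in 8 of 12 and in 49.6%. The windows of P2ry14 each held GAGGAA and overlap in part, so that the same match was counted in more than 1 of them. P2ry12 had 1 CAGAC match and no GAGGAA match, and P2ry13 had 1 GAGGAA match and no CAGAC match. These matches are a description of letters and not of binding.

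Culture without cytokines was compared with sorted newborn cells first. The ADP receptors P2ry12 and P2ry13 fell far, P2rx7 fell less, P2rx4 and P2ry14 rose, and P2ry6, Entpd1 and Adora3 did not pass the test. Gpr34 was too dim to be compared and counts as not called. That is 5 of 9 genes called, 2 higher and 3 lower, where 29.7% of all genes were called, 15.8% higher and 13.9% lower. The groups did not overlap for 6 of the 9 genes, against 44.2% of all genes. The median log2 difference of the 9 genes was -0.4 and that of all genes 0.09.

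P2ry12 had log2 intensities of 12.93, 12.82 and 13.1 in NB_FACS and of 6.63, 6.8 and 6.1 in NB_Control. Every cultured array lay far below every sorted array. The log2 difference was -6.44 (SE 0.31, n = 3 each, limma adjusted p 1.02e-06), an 86.9-fold lower signal. P2ry13, which like P2ry12 is an ADP receptor coupled to inhibitory G proteins, went from 10.46, 10.16 and 9.76 to 5.3, 5.66 and 4.75. Its arrays did not overlap either, and the difference was -4.89 (SE 0.25, limma adjusted p 1.58e-06), or 29.6-fold. Within slides the differences were -6.16 and -7 for P2ry12 and -4.83 and -5.01 for P2ry13 on slides 1 and 2.

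The third receptor gene of the same cluster moved the other way. P2ry14, a receptor for UDP-glucose, had values of 1.19, 3.47 and 3.63 in NB_FACS, where only 1 of the 3 arrays was well above background, and of 6.52, 6.68 and 4.63 in NB_Control. The cultured arrays were the higher ones without overlap (log2 difference 3.18, SE 0.71, limma adjusted p 0.00736). The call rested on 1 of 7 probes, was lost when dim probes were kept (0.52, adjusted p 0.217), and was also lost without A_FACS replicate 1 (log2 difference 1) and without NB_Stim replicate 1 (1.35), where further probes entered. Within slides the difference was 4.27 and 1.01. P2ry6, the UDP receptor that triggers phagocytosis, held 13.09, 13.34 and 13.43 in NB_FACS and 13.26, 13.13 and 12.8 in NB_Control, and these overlapped (-0.22, SE 0.16, limma adjusted p 0.342). Gpr34, a receptor for lysophosphatidylserine related to P2ry12 in sequence, was not well above background on any newborn array with either of its 2 probes. Both were designed on predicted transcripts, so the probe signal was dim, the level of the gene is not known and no fold is given.

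Among the ATP-gated channels, P2rx4 held 11.82, 12.05 and 12.09 in NB_FACS and 13.99, 14.03 and 13.74 in NB_Control. All cultured arrays were higher, by 1.93 (SE 0.19, limma adjusted p 5.18e-05), or 3.82-fold. P2rx7, the channel that drives the NLRP3 inflammasome, had a mean over 5 probes of 8.78, 8.73 and 8.42 in NB_FACS and of 7.95, 7.91 and 7.43 in NB_Control. It fell by 0.88 (SE 0.19, limma adjusted p 0.00552) without overlap, and its single probes differed by -1.14 to -0.52, all in this direction.

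Entpd1 encodes CD39, which cuts ATP and ADP to AMP. Its mean over 3 probes was 7.82, 7.63 and 7.1 in NB_FACS and 7.18, 7.16 and 7 in NB_Control, which overlapped (-0.4, SE 0.22, limma adjusted p 0.213). The probes differed. The only one above background on all arrays went from 12.32, 12.28 and 12.11 to 11.07, 11.23 and 10.96 without overlap, and taken alone it was called (-1.15, limma adjusted p 0.000296), while the other 2 differed by -0.46 and 0.4. Adora3, the A3 adenosine receptor, went from 7.96, 8.09 and 7.52 to 7.4, 7.27 and 5.96, without overlap but not called (-0.98, SE 0.37, limma adjusted p 0.0718). With the replicate number as a block it was called (limma adjusted p 0.00429), as with slide as a block (0.00211), and its differences within slides were -0.69 and -1.56.

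**Figure D1:**
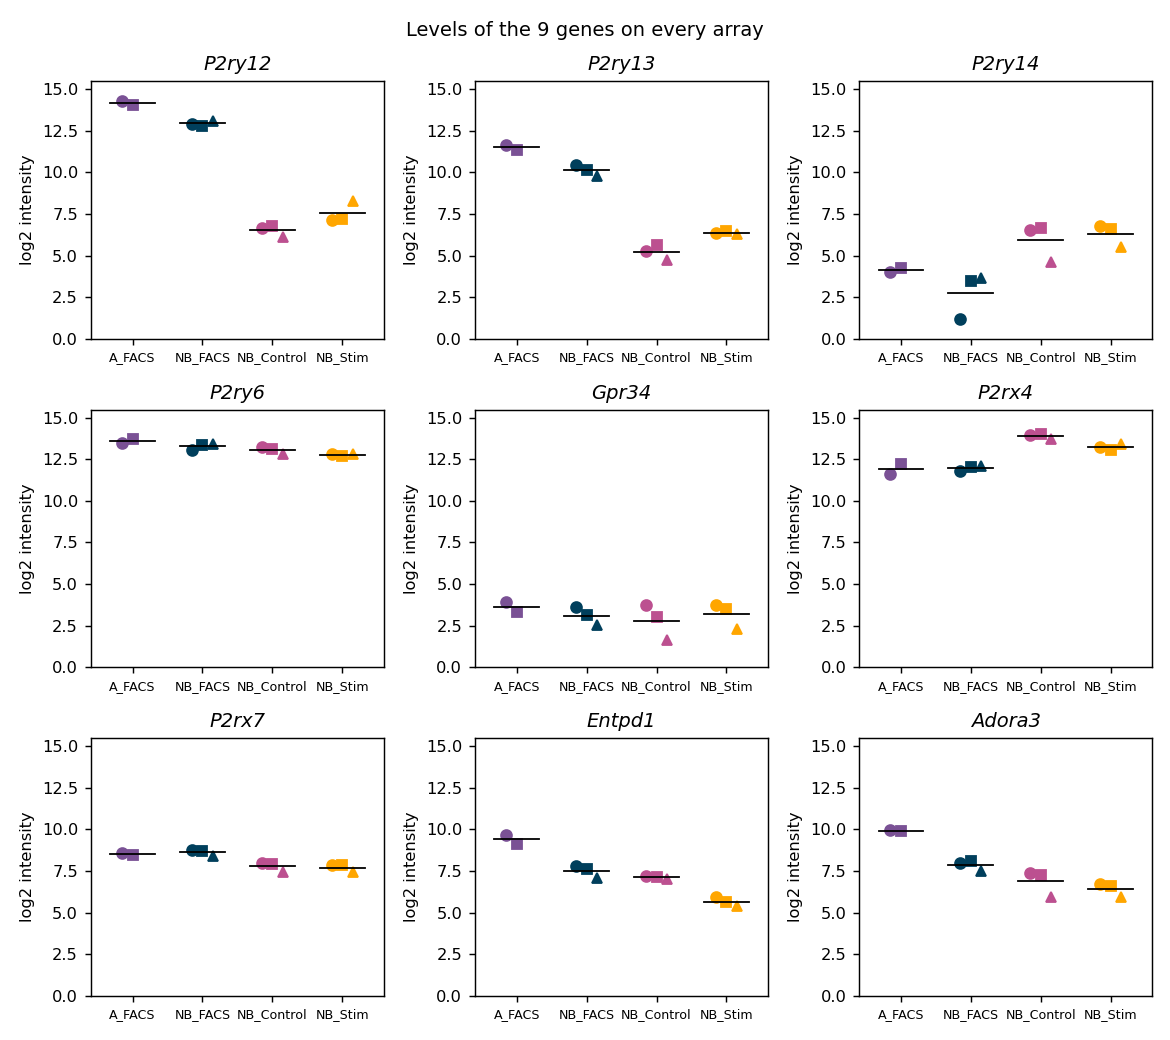
Quantile-normalised log2 intensity (vertical axis) of the 9 genes on each of the 11 arrays by group; circles, squares and triangles are replicates 1, 2 and 3 and black lines are group means. P2ry12 and P2ry13 sit at means of 6.51 and 5.24 in NB_Control against 12.95 and 10.12 in NB_FACS, while P2rx4 sits higher in culture and P2ry6 stays near 13.

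The cytokines were then compared with culture alone, the comparison that bears on the return of P2ry12. P2ry13 rose and Entpd1 fell, and the other 7 genes did not pass the test. That is 2 of 9 genes called, where 3.41% of all genes were called (666, and 1193 with the replicate number as a block), 1.4% higher and 2% lower. The groups did not overlap for 4 genes (P2ry12, P2ry13, P2rx4 and Entpd1), against 24% of all genes. The median log2 difference of the 9 genes was -0.06 and that of all genes 0.

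P2ry12 was 6.63, 6.8 and 6.1 in NB_Control and 7.12, 7.19 and 8.3 in NB_Stim. The stimulated arrays were the higher ones without overlap, and replicate 3 stood above the other two. The difference of 1.03 (SE 0.31, 2.04-fold, limma adjusted p 0.121) was not called, and it was 0.44 within slide 1, 2.2 within slide 2 and 0.65 without NB_Stim replicate 3. Some markers of other cells, named here for this reason, also stood apart on that array. Olig2, of the oligodendrocyte lineage, was 8.21, 8.35 and 10.94 in NB_Stim, Pdgfra 8.06, 8.1 and 10.1, and the astrocyte marker Slc1a3 5.05, 4.74 and 7.4. From the same lists, Olig1 was also higher there (7.05, 7.17 and 8.73), but Mbp was lower (8.84, 8.8 and 8.37). The astrocyte markers Gfap (7.05, 7.12 and 7.24), Aldoc (10.74, 10.62 and 10.88) and Aldh1l1 (7.72, 7.57 and 8.29) differed less. The part of such cells in the P2ry12 value was not tested. P2ry13 went from 5.3, 5.66 and 4.75 to 6.36, 6.47 and 6.28, again without overlap. It rose by 1.14 (SE 0.25, limma adjusted p 0.0371), with 0.94 within slide 1 and 1.54 within slide 2. That call was lost in 11 alternative settings with adjusted p-values up to 0.195, among them 7 that left out a single array (NB_Stim replicate 1, 2 or 3, NB_Control replicate 1 or 3, NB_FACS replicate 2 or A_FACS replicate 1), with differences of 0.89 to 1.18.

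With cytokines both ADP receptors were far below the sorted newborn cells. NB_Stim differed from NB_FACS by -5.41 for P2ry12 (SE 0.31, limma adjusted p 2.28e-06, 42.6-fold) and by -3.75 for P2ry13 (SE 0.25, limma adjusted p 5.15e-06, 13.5-fold). The microglia genes Tmem119, Olfml3 and Cx3cr1, set beside them, had differences of -3.68, -3.15 and -4.24 between NB_Control and NB_FACS, of 2.9, 3.24 and 4.03 between NB_Stim and NB_Control and of -0.78, 0.09 and -0.2 between NB_Stim and NB_FACS. These 3 comparisons share arrays in pairs, so their values are given side by side only. Olfml3 and Cx3cr1 were not called between NB_Stim and NB_FACS. These genes were picked from 10 tested microglia markers with their results known. Of the 10, 5 fell in culture and 4 rose with cytokines, the 3 above among them. Fcrls fell in culture (-1.42) and was not called with cytokines (1.15, limma adjusted p 0.159). Csf1r (-0.59, then 0.08), Itgam, Trem2, Ptprc and C1qa were called at neither step.

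**Figure D2:**
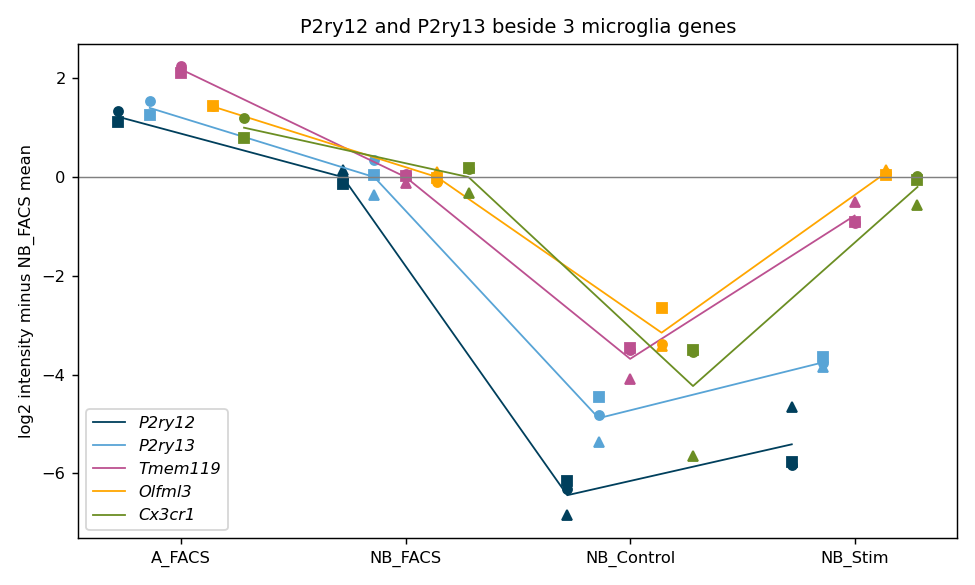
Log2 intensity of P2ry12, P2ry13, Tmem119, Olfml3 and Cx3cr1 minus the NB_FACS mean of the same gene (vertical axis) by group; symbols are arrays (circle, square and triangle for replicates 1, 2 and 3) and lines join group means. In NB_Stim the 3 microglia genes lie at -0.78, 0.09 and -0.2, and P2ry12 and P2ry13 at -5.41 and -3.75.

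The remaining receptors were not called higher with cytokines. P2ry6 was 12.84, 12.69 and 12.84 in NB_Stim (-0.27 from NB_Control, SE 0.16, limma adjusted p 0.497), and P2ry14 was 6.79, 6.62 and 5.53 (0.37, SE 0.71, limma adjusted p 0.906), both overlapping NB_Control. P2rx7 held 7.83, 7.83 and 7.45 (-0.06, SE 0.19, limma adjusted p 0.942). P2rx4 was 13.24, 13.05 and 13.45, below every NB_Control array, with a difference of -0.68 (SE 0.19) that missed the threshold (limma adjusted p 0.0929) and passed it under 75th percentile scaling (-0.91, adjusted p 0.029). Adora3 was 6.69, 6.59 and 5.94 and overlapped NB_Control (-0.47, SE 0.37, limma adjusted p 0.647).

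Entpd1 fell with cytokines, from 7.18, 7.16 and 7 to 5.91, 5.63 and 5.42. The stimulated arrays lay below all NB_Control arrays, and the difference was -1.46 (SE 0.22, 2.75-fold, limma adjusted p 0.0065), with -1.4 within slide 1 and -1.58 within slide 2. Its 3 probes differed by -1.89, -1.23 and -1.26, all downward. The call was lost when cultured replicates 1 and 2 were averaged (-1.49, adjusted p 0.0943).

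**Figure D3:**
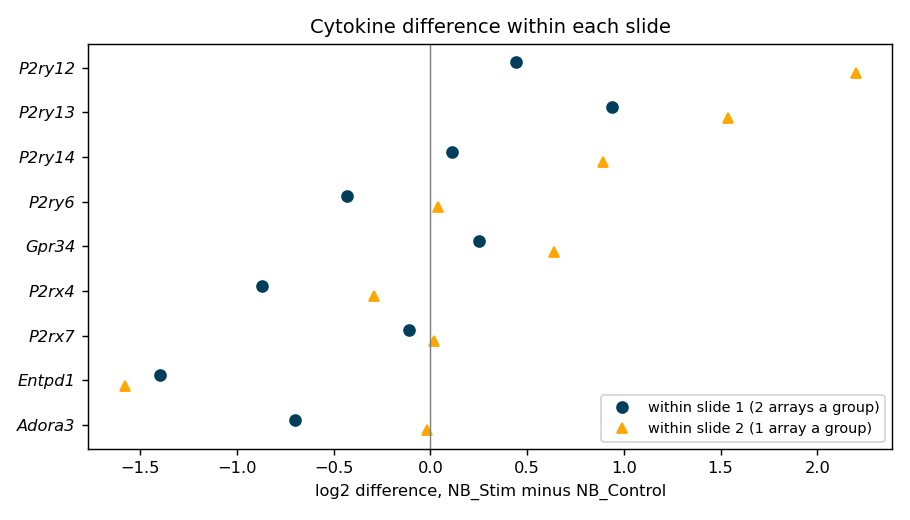
Log2 difference between NB_Stim and NB_Control (horizontal axis) of each gene within slide 1 (circles, 2 arrays a group) and slide 2 (triangles, 1 array a group). P2ry12 lies at 0.44 and 2.2, P2ry13 at 0.94 and 1.54 and Entpd1 at -1.4 and -1.58.

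Whether a gene changed by another amount than P2ry12 was tested on the difference of both log2 values within each array, with 3 arrays against 3. For P2ry13 this relative change was 0.11 (SE 0.43, exact two-sided permutation p = 1), and its sign turned when NB_Stim replicate 1 (-0.09) or replicate 2 (-0.11) was left out. It was -1.3 for P2ry6, -1.7 for P2rx4, -1.09 for P2rx7, -2.49 for Entpd1 and -1.5 for Adora3, each with an exact permutation p of 0.1, the smallest this design allows, and 0.16 after Benjamini-Hochberg adjustment over 8 pairs. No gene could therefore pass the threshold. For P2ry14 it was -0.66 (SE 0.9, exact permutation p = 0.5). The pair with Gpr34 was among the 8 but is not read, since its probe was dim on all 6 arrays.

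Between NB_Stim and NB_FACS 8 of 9 genes were called, 2 higher and 6 lower, where 31.1% of all genes were called, 16% higher and 15.1% lower. The groups did not overlap for 8 genes, against 43.5% of all genes. Beside P2ry12 and P2ry13, the lower genes were Entpd1 (-1.86, SE 0.22, limma adjusted p 0.000185), Adora3 (-1.45, SE 0.37, adjusted p 0.0131), P2rx7 (-0.94, SE 0.19, adjusted p 0.00375) and P2ry6 (-0.5, SE 0.16, adjusted p 0.0382). The Entpd1 probe above background on all arrays differed by -3.04, and its other 2 probes by -1.69 and -0.86. The small difference of P2ry6 lost its call in 8 settings, 6 of which left out 1 array (NB_FACS replicate 2 or 3, NB_Control replicate 2, or any NB_Stim array), and Adora3 lost its call without NB_FACS replicate 2 (-1.33). P2rx4 (1.26, SE 0.19, adjusted p 0.000697) and P2ry14 (3.55, SE 0.71, adjusted p 0.00402) were higher. P2ry14 lost its call without NB_Stim replicate 1 (1.69) and with dim probes kept (0.62).

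**Figure D4:**
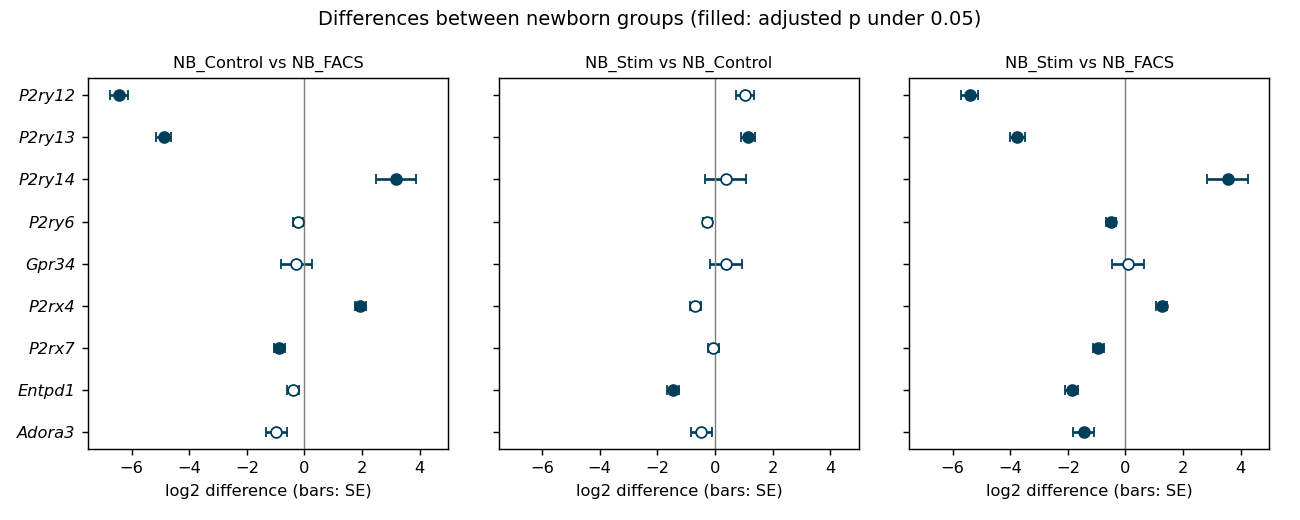
Log2 difference (horizontal axis, bars are SE) of the 9 genes in the 3 comparisons of newborn groups; filled points were called at an adjusted p under 0.05. In the middle panel P2ry13 (1.14) and Entpd1 (-1.46) are filled, and P2ry12 (1.03) is open.

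Sorted adult cells were compared with sorted newborn cells. P2ry12, P2ry13, Entpd1 and Adora3 were higher in A_FACS and none of the 9 was lower by limma (0 at an unadjusted p under 0.05 or by Tukey's p), that is 4 of 9 called, where 22.7% of all genes were called, 9.75% higher and 12.9% lower. The groups did not overlap for 6 of the 9, against 51.2% of all genes. Microglia markers were also higher in A_FACS: of 10 tested, 5 were called higher and 0 lower by limma. Their median log2 difference was 1.05, that of the 9 genes 1.22 and that of all genes -0.01. P2ry12 was 14.28 and 14.06 in A_FACS (1.22, SE 0.34, limma adjusted p 0.0289) and P2ry13 was 11.67 and 11.38 (1.4, SE 0.28, adjusted p 0.00578). The call of P2ry12 was lost in 6 settings, which included 75th percentile scaling (0.93, adjusted p 0.0813) and leaving out either adult array (1.11 and 1.33) or NB_FACS replicate 1 (1.21) or 2 (1.16). Adora3 was 9.96 and 9.88 (2.06, SE 0.41, adjusted p 0.00592) and Entpd1 9.69 and 9.15 (1.9, SE 0.25, adjusted p 0.00065), all above the newborn arrays. The Entpd1 probe above background on all arrays differed by 1.02, and its other 2 probes by 2.44 and 2.25. Without A_FACS replicate 1, P2ry13 (1.25) and Adora3 (2.02) were no longer called, and 1 of 9 genes was. Against NB_Control and against NB_Stim, 6 of the 9 genes were higher in A_FACS (P2ry12, P2ry13, P2ry6, P2rx7, Entpd1 and Adora3) and P2rx4 was lower. All genes were called in 40.8% against NB_Control (17.7% higher, 23.2% lower) and in 40.2% against NB_Stim (17.5% higher, 22.8% lower), and the arrays did not overlap for 8 members each, where 66.4% and 63% of all genes did not. P2ry6 lost its call against NB_Control in 7 settings, among them leaving out either adult array (0.68 and 0.44) or NB_Control replicate 2 (0.59) or 3 (0.43), and P2rx7 lost its calls without A_FACS replicate 1 (0.67 and 0.74). P2ry14 was not called against NB_Stim (-2.16, limma adjusted p 0.0545) but was called lower in 8 settings, among them the replicate block (-2.37, adjusted p 0.0435) and slide as a block (adjusted p 0.0389).

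Over the 4 groups P2ry12, P2ry13, Entpd1 and Adora3 were highest in A_FACS and next in NB_FACS, and P2ry12 and P2ry13 were lowest in NB_Control but Entpd1 and Adora3 in NB_Stim. NB_Stim and NB_Control were not told apart for P2ry12, P2rx4, P2rx7, P2ry6, P2ry14 or Adora3, and NB_FACS and NB_Control were not for P2ry6, Entpd1 or Adora3. P2rx4 was highest in NB_Control (mean 13.92 ± 0.16, SD, n = 3) and NB_Stim (13.25 ± 0.2, n = 3), with NB_FACS (11.99 ± 0.15, n = 3) and A_FACS (11.95 ± 0.42, n = 2) not told apart.

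**Figure D5:**
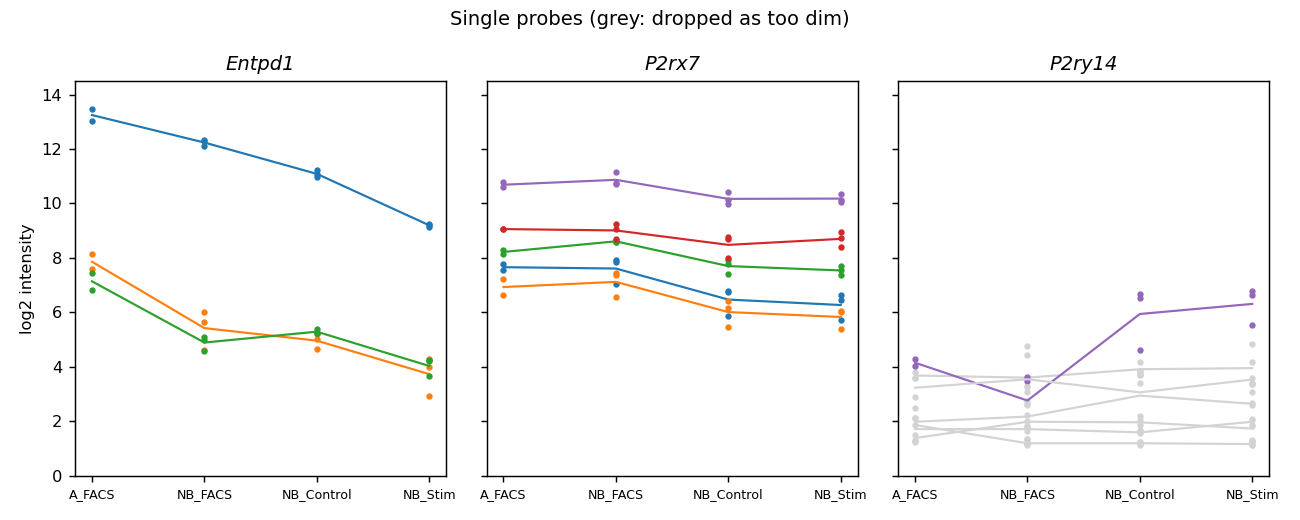
Log2 intensity (vertical axis) of single probes of Entpd1, P2rx7 and P2ry14 by group; points are arrays, lines join group means and grey marks probes dropped as too dim. The uppermost Entpd1 probe goes from 12.24 in NB_FACS to 11.09 in NB_Control and 9.2 in NB_Stim, the 5 P2rx7 probes run side by side, and 1 of 7 P2ry14 probes was kept.

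The wider pathway was described by 63 further genes, 57 with a probe and 54 tested. Between NB_Control and NB_FACS 8 were called higher and 15 lower. Between NB_Stim and NB_Control 0 were higher and 4 lower by limma (5 were higher at an unadjusted p under 0.05, and 2 by Tukey's p), and between NB_Stim and NB_FACS 9 were higher and 16 lower. Over all genes the shares higher and lower were 15.8% and 13.9%, 1.4% and 2%, and 16% and 15.1% in the same order. The medians were -0.02, -0.04 and -0.15, and those of all genes 0.09, 0 and 0.11.

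Among other receptors, the channel P2rx1 fell in culture from 7.47, 7.61 and 7.62 to 3.94, 4.42 and 4.38 (-3.32, limma adjusted p 2.01e-06). With cytokines it was 4.12, 4.05 and 4.4, well above background on only 2 of 3 arrays, and not called between the cultured groups (-0.06). P2rx3 rose in culture (0.92, adjusted p 0.0455), and P2rx5 (0.1) and P2rx6 (0.01) were not called. The ADP receptor P2ry1 (1.9, adjusted p 0.0475) rose in culture and Gpr183, an oxysterol receptor, fell (-1.63, adjusted p 0.000137). With cytokines P2ry10b was lower than in NB_FACS (-1.61). Of the adenosine receptors, Adora2b, the A2B receptor, fell at both steps, from 8.54, 9.09 and 9.21 in NB_FACS to 7.09, 7.25 and 6.67 in NB_Control (-1.95, adjusted p 0.00437) and 5.8, 5.71 and 4.29 in NB_Stim (-1.73, adjusted p 0.0462). Adora1, well above background on 1 of 3 NB_FACS arrays, rose in culture (2.34, adjusted p 0.0453) and was 1.35 higher again in NB_Stim without a call (adjusted p 0.489).

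In the breakdown of nucleotides, Nt5e, which encodes the AMP-cutting enzyme CD73, was not well above background in NB_FACS and had means of 5.81 in NB_Control and 7.34 in NB_Stim, at least 4.75-fold and at least 13.7-fold higher (adjusted p 0.00239 and 0.000378). Entpd2, a relative of Entpd1 that cuts ATP, fell in culture (-2.58, adjusted p 3.91e-05), where it was well above background on only 2 of 3 NB_Control arrays. Ada, which breaks down adenosine, fell in culture (-1.01) and again with cytokines (-0.99, adjusted p 0.0369). Entpd4 was higher in NB_Stim than in NB_FACS (0.75). The adenosine and nucleoside transporters Slc29a4 (-1.43), Slc29a1 (-1.33) and Slc29a3 (-1.14) fell in culture, and Panx1, a channel that releases ATP, fell with cytokines (-1.08, adjusted p 0.0203).

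Among partners of the receptors, Nlrp3, the inflammasome sensor downstream of P2rx7, was not well above background in either cultured group and was at least 5.87-fold lower in NB_Control than in NB_FACS (adjusted p 8.41e-05). Gna11 (0.85) rose in culture. Ptgs1 passed the test (-1.24, adjusted p 0.0452), but it was well above background on only 1 of 3 NB_Control arrays, and its highest value there (3.52) overlapped NB_FACS (3.46 to 3.87). Casp1, the protease of the inflammasome, rose in culture (1.05, adjusted p 0.00338) and fell with cytokines (-1.37, adjusted p 0.00585). Il1b, its substrate, was lower in NB_Stim than in NB_FACS (-3.52, adjusted p 0.0217), and Gnaq was higher (0.84). On the stretch of chromosome 3 around P2ry12, Med12l did not pass the test in the 3 comparisons (-0.04, 0.33 and 0.28). Igsf10 fell in culture (-1.03, adjusted p 0.0347), where it was well above background on only 2 of 3 NB_Control arrays. Siah2, a ubiquitin ligase gene listed with both and named after its values were seen, fell in culture (-2.8, adjusted p 3.17e-06) and was not called with cytokines (-0.13).

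The 5 genes nearest to P2ry12 over the 11 arrays, by the root mean square difference of log2 values centred on the NB_FACS mean among 17595 genes, were Gem (0.61), Ptprb (0.64), Adgrl4 (0.68), Siglech (0.68) and Tek (0.74). Tek was not well above background on any cultured array and Ptprb on no NB_Control array, so their distances depend on the background there. P2ry13 was at rank 16 (1.25), and Tmem119, Olfml3 and Cx3cr1 were at ranks 328, 803 and 435. Siglech, a microglial lectin, differed by -5.58 between NB_Control and NB_FACS and by 0.4 between NB_Stim and NB_Control. Ptprb, Adgrl4 and Tek are known from endothelial cells, and of 6 endothelial markers tested 4 fell in culture (Tek itself, Cldn5, Pecam1 and Flt1), where 13.9% of all genes were lower. Cldn5 had means of 11.99 in NB_FACS, 4.77 in NB_Control and 4.12 in NB_Stim, while Flt1 rose with cytokines (2.78, adjusted p 0.00081) and Cdh5 (-0.54) and Kdr (-0.04) were not called in culture. Their part in the likeness was not tested. By Pearson correlation over the same arrays, given as a description, Tgif2 (0.994), Ints6l (0.99), Matk (0.99), H3c13 (0.989) and P2ry13 (0.989) came first, points that share arrays and slides.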

How the data were processed

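RNA was measured on 11 single-colour Agilent arrays. The authors deposited scanner files with a background-subtracted signal intensity per spot, made with Feature Extraction 11.5.1.1, and a series-wide intensity matrix of the same values, in which none of 62927 entries differed by more than a relative 1e-05. No spot was saturated. Log2 values of repeated spots were averaged without outlier-flagged spots, quantile normalised over 59899 probes and matched to symbols by RefSeq accession (GRCm38.p6 annotation, 60.4% of probes). A probe was kept if some group had it well above background on all of its arrays, and kept probes were averaged to 19555 genes. Of the 63 pathway genes, P2ry2, Gpr174, Adora2a, Entpd5, Entpd6 and Gnai3 had no matched probe. Limma 3.58.1 under R 4.3.3 fitted 1 mean per group (7 residual degrees of freedom). The fit was then tried on simulated data built from the means and spreads of these genes. The R package data.table (version 1.17.8) read the files, and matplotlib 3.10.9 drew the figures.

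The number of arrays limits the precision. Same-numbered newborn arrays deviated together (9 of 9 pairs correlated over 0.1, at 0.11 to 0.49), and the replicate number was used as a block. Differently numbered pairs of newborn replicates 1 and 2 did so as well, at 0.19 to 0.36. Pairs of replicate 3 with either lay at -0.45 to -0.18. The correlations thus set replicate 3, which shares a slide, apart and do not show a pairing by number. The block was chosen from the data, and same-numbered pairs with adult arrays correlated at -0.07 to 0.17. The labels tie no replicate to an animal or flask, so p-values measure the spread between these arrays. Cultured replicates 1 and 2 differed little, with an SD of log2 differences of 0.262 in NB_Control and 0.295 in NB_Stim. Against replicate 3, on the other slide, it was 0.565 to 0.701. Whether replicates 1 and 2 were separate preparations is not known, and if not, n = 3 overstates the replication. The setting that averaged them counts them as 1 array. Groups came from sample titles. The members, the gene lists and the rule for named genes (all 9 members, and from each pathway list up to 2 called genes with the largest difference in each direction and newborn comparison, with all tested P2X and adenosine receptors) were chosen with earlier results of these data known. Some items are not reported here. A gene dim in a group is given as a bound against the lowest signal well above background. Alternatives covered scaling, background correction, the authors' matrix, filters, probe choice, replicate and slide blocks, the groups fitted, the methods' analysis of variance with Tukey's p, averaged cultured replicates and leaving out each array. Averaging the repeated spots before taking log2 was added after seeing the data.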

Additional observations from a re-analysis of the deposited data

How the results depend on the processing

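The differences of P2ry12 and P2ry13 between either cultured group and NB_FACS were called in every tested setting, with ranges, single slides included, of -7 to -5.75 and -5.1 to -3.64 for NB_Control and of -5.79 to -4.8 and -3.94 to -3.07 for NB_Stim. The difference of P2ry12 between NB_Stim and NB_Control was called in none, at 0.44 to 2.2. Both genes rest on a single probe, so the filters and the choice of probe left their differences unchanged. The authors' matrix held the same values and could change no call. Averaging spots before taking log2 changed no call of the 9 genes.

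Between NB_Stim and NB_Control the count of 666 genes was 1009 with normexp, 1476 with slide as a block, 118 with cultured replicates 1 and 2 averaged and 1590 by analysis of variance with Tukey's p. Without single arrays it was 296 to 701 (lowest without NB_Stim replicate 1). The count of 2 members was 1 without the filter, 1 with only the 2 groups compared, 3 with 75th percentile scaling and with Tukey's p, 0 in limma with cultured replicates 1 and 2 averaged (3 at an unadjusted p under 0.05) and 1 to 2 without single arrays. Between A_FACS and NB_FACS 4434 genes became 2923 with only the 2 groups compared, and 2284 to 5119 without single arrays. The lowest was without A_FACS replicate 1, where the count of 4 members became 1. Against NB_Control and NB_Stim the ranges for A_FACS were 5050 to 8703 and 4687 to 8374, lowest without the same array.

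The replicate block gave 1193 genes between NB_Stim and NB_Control, and its count of members called was 2. With the block Adora3 was called between NB_Control and NB_FACS and P2ry14 between A_FACS and NB_Stim, and it changed no other call of the 9 genes.

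Signs turned only for differences that were not called, and the cause was not tested. Gpr34 was dim on all newborn arrays, so its values here are differences of background signals and no measure of its level. Without single arrays they ranged from -0.73 to 0.29 between NB_Control and NB_FACS, from -0.19 to 0.84 between NB_Stim and NB_Control and from -0.19 to 0.54 between NB_Stim and NB_FACS, where averaging cultured replicates 1 and 2 gave -0.12. Between NB_Stim and NB_Control P2ry14 ranged from -0.28 to 0.76 and P2rx7 from -0.23 to 0.06, with 0 for the brightest probe of P2rx7. P2rx4 between A_FACS and NB_FACS ranged from -0.34 to 0.26. Relative to P2ry12, P2ry13 was -0.15 with normexp, -0.08 with cultured replicates averaged, -0.66 within slide 2 and -0.11 to 0.53 without single arrays. Without single arrays P2ry14 was -1.1 to 0.11, and the dim Gpr34 -1.14 to 0.18, on that measure.

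Every group has 2 or 3 arrays, and Gpr34 and most P2ry14 probes were too dim to be followed.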
